A study of Homo sapiens with 9 samples.

Results

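The intermediate filament genes of neurons, glia and neural progenitors were followed across 9 arrays of A673 cells, a human line from an Ewing tumour with an EWS/FLI fusion. The group comprises NEFL, NEFM and NEFH, which encode the light, medium and heavy neurofilament chains, INA (alpha-internexin), PRPH (peripherin), GFAP (glial fibrillary acidic protein), NES (nestin) and VIM (vimentin). They are 8 of the 11963 genes that at least 1 probe set of the Affymetrix array names alone. A probe set was taken when the array's annotation named one of the 8 as its only gene, which gave 12 of 22283 probe sets. NEFL was read by 3 probe sets, NEFH and GFAP by 2 each, and the other genes by 1 each.

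The study's title concerns EZH2, the histone methyltransferase of the Polycomb repressive complex, in tumour growth driven by EWS-FLI1 and in the block of endothelial and neuro-ectodermal differentiation. Cells were transfected for 48 hours with 5 nM of an EZH2 siRNA called no.2 (2 arrays), of a further EZH2 siRNA whose title gives no number (1 array, here the unnumbered EZH2 siRNA), or of a control siRNA (2 arrays). Other cells received for 24 hours either TSA at 100 nM (trichostatin A, which inhibits histone deacetylases, 2 arrays), or 0.01% DMSO, its solvent (2 arrays). All 5 groups are the same cell line in one culture medium, and every result therefore describes 1 line. The siRNA groups and the TSA and DMSO groups differ in both time and transfection. Titles call the 2 arrays of a group biological replicates, and nothing says whether they came from separate cultures, so the p-values measure only the spread between these arrays.

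Intermediate filament proteins share a central coiled-coil rod, pair into dimers, and assemble into rope-like filaments that brace the cell. The neurofilament chains co-assemble with alpha-internexin or peripherin in axons, where the tails of the medium and heavy chains carry many phosphates and help to set axon calibre. Vimentin is the filament of mesenchymal cells, nestin needs a partner such as vimentin to assemble and marks neural progenitors, and GFAP is the filament of mature astrocytes.

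NES and VIM are the members with the widest and the narrowest spread of signal over the tested members, and their promoter windows are given for comparison. Both come from RefSeq (GRCh38.p14) and run from 250 bases before to 50 bases after the annotated gene start. The NES window is chr1:156677358-156677657 on the minus strand and the VIM window is chr10:17227991-17228290 on the plus strand. Capitals mark the GC box letters GGGCGG on either strand, where they read CCGCCC on the strand opposite to the match.
NES: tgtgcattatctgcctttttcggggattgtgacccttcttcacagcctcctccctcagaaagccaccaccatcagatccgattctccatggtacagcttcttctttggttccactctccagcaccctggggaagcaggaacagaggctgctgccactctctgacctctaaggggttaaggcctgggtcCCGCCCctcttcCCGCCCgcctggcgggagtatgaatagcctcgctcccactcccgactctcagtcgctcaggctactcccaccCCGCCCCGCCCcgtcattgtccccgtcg
VIM: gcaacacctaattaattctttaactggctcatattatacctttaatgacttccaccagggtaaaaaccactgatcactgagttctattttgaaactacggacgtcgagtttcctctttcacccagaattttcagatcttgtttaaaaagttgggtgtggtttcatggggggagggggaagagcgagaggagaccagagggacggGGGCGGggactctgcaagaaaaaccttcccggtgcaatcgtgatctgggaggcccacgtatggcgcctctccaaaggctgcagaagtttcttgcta
The NES window holds 4 such matches, of which the last 2 overlap by 1 base, and the VIM window holds 1. At least 1 match is present in 45.0% of the 35116 RefSeq windows of this length, so the letters are common. The windows hold 14 CG pairs for NES and 10 for VIM, against a median of 14 over all windows, and 60.3% of the NES bases and 48% of the VIM bases are G or C, against a median of 58.7%. Windows were also found for INA, with 4 matches and 35 CG pairs, and for PRPH, with 0 matches, 13 CG pairs and 1 TATAAA, a word present in 11.5% of the windows. A match is a description of letters and was not read as a binding site.

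The values are MAS5 signals, a summary of hybridisation brightness per probe set on a linear scale. Signals of different probe sets are not comparable as amounts of RNA, so each was compared only between arrays. Array medians lay between 125 and 159, and replicates of a group correlated over all probe sets with r of 0.957 to 0.969 on the log2 scale. The signals came without detection calls. A probe set was therefore tested only if its mean over the 9 arrays reached the 30th percentile of all probe sets, 53.3, which left 13665 probe sets. Of the 12 filament probe sets, 10 passed, those of 7 genes, and both GFAP probe sets lay under it. EZH2 itself had 572 and 270.6 under siRNA no.2, 681 under the unnumbered siRNA and 1130.1 and 1172 under control siRNA, with a log2 fold change for no.2 of -1.48 ± 0.32 (SE, limma, unadjusted p = 0.000787, adjusted p = 0.920). All 5 of the Ewing sarcoma markers on the array passed the filter, among them CD99 with 14839.9 to 19651. Of the markers of mature neurons 5 of 6 passed, with STMN2 under the filter, and of those of astrocytes 4 of 7, with AQP4, S100B and SLC1A2 under it. Of those of neural progenitors 4 of 5 passed, of fibroblasts 5 of 6, of Schwann cells and oligodendrocytes 1 of 3, of endothelium 1 of 5, of epithelium 2 of 5 and of blood cells 1 of 3.

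**Figure D1:**
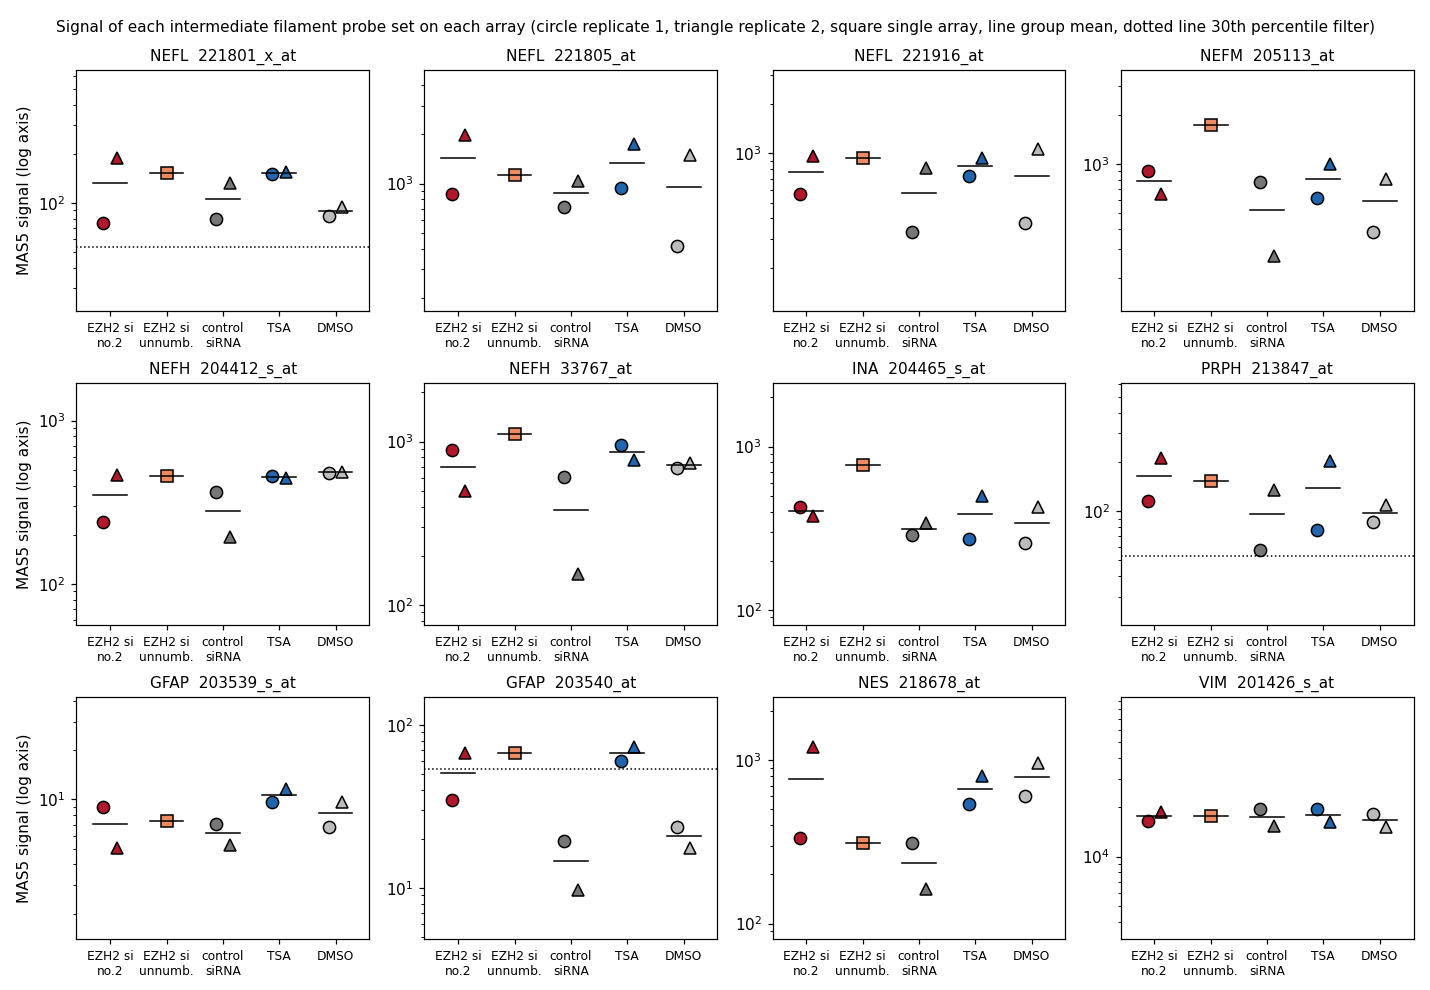
MAS5 signal (log axis) of each of the 12 probe sets on each of the 9 arrays, with groups along the x axis, circles for replicate 1, triangles for replicate 2, a square for the single array of the unnumbered EZH2 siRNA, a line for the group mean and a dotted line at 53.3, the 30th percentile filter, where it falls in the panel. VIM hardly varied, NES and NEFH had their lowest signals on control siRNA replicate 2, and one GFAP probe set was higher on the 5 treated arrays than on the 4 control arrays.

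No filament gene passed the adjusted test in any comparison of treatments. The mean signals of NEFL, NEFM and NEFH were higher with either EZH2 siRNA than with control siRNA, and none of these differences passed. VIM, the mesenchymal filament, was nearly the same on every array. Its signals were 16582 and 18816 under EZH2 siRNA no.2, 17803 under the unnumbered siRNA and 19501 and 15456 under control siRNA. With TSA they were 19598 and 16261, against 18271 and 15083 with DMSO. The highest of the 9 values was 1.30 times the lowest. Groups overlapped in both 2 against 2 comparisons, with log2 fold changes of 0.02 ± 0.21 for siRNA no.2 and 0.10 ± 0.21 for TSA (SE).

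NES, the progenitor filament, varied 7.47-fold between its lowest and highest array, the widest ratio among the probe sets that passed the filter. Its signals were 333 and 1208 under siRNA no.2, 313 under the unnumbered siRNA and 310.1 and 162 under control siRNA. Both no.2 arrays lay above both control arrays, but the first exceeded the higher control by only a small margin. The group means were 770.4 ± 619 for no.2 and 236 ± 105 for control (SD, n = 2 arrays each). The log2 fold change was 1.41 ± 0.52 (SE), which did not pass the test (limma, unadjusted p = 0.0198, adjusted p = 0.920). It was 0.09 between the replicate 1 arrays and 2.72 between the replicate 2 arrays, and 0.51 without no.2 replicate 2. The unnumbered siRNA gave 0.43 ± 0.63, or 0.013 without control replicate 2.

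With TSA, NES had 542 and 798, against 603 and 969 with DMSO, and the groups overlapped (log2 fold change -0.21 ± 0.52, SE). The DMSO arrays themselves were above both control siRNA arrays, by 1.66 ± 0.52 on the log2 scale (limma, unadjusted p = 0.00832, adjusted p = 1.00). DMSO and control siRNA differ in time, transfection and solvent, which cannot be told apart here. The effect of siRNA no.2 minus that of TSA was 1.62 ± 0.73 for NES (SE, unadjusted p = 0.0490, adjusted p = 1.00), so the 2 responses were not shown to differ.

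NEFM, the medium chain, had 903 and 657 under siRNA no.2, 1735 under the unnumbered siRNA and 773 and 272 under control siRNA. The array of the unnumbered siRNA was the brightest of the 9, while no.2 and control overlapped. Log2 fold changes were 1.85 ± 0.58 for the unnumbered siRNA (SE, limma, unadjusted p = 0.00860, adjusted p = 0.952) and 0.71 ± 0.47 for no.2 (unadjusted p = 0.164, adjusted p = 0.928). Without control replicate 2 the value for no.2 was -0.0047 and that for the unnumbered siRNA 1.14. With TSA, NEFM had 614 and 994, against 380.0 and 803 with DMSO, which overlapped (0.48 ± 0.47).

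NEFH, the heavy chain, was read by 33767_at and 204412_s_at, where the suffix _s marks probes shared between transcripts. By 33767_at it had 889 and 500.4 under siRNA no.2, 1105 under the unnumbered siRNA and 607 and 154 under control siRNA. Control replicate 2 was the lowest array by far. The log2 fold changes were 1.04 ± 0.49 for no.2 (SE, limma, unadjusted p = 0.0565, adjusted p = 0.920) and 1.75 ± 0.60 for the unnumbered siRNA (unadjusted p = 0.0140, adjusted p = 0.952). Without control replicate 2 they were 0.13 and 0.84, so for no.2 most of the distance rested on that array. By 204412_s_at the signals were 241 and 462 under no.2, 460.4 under the unnumbered siRNA and 363 and 195 under control. Those groups overlapped for no.2, and the fold changes were 0.30 ± 0.35 and 0.73 ± 0.43.

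With TSA the NEFH probe sets gave opposite signs. By 33767_at NEFH had 955 and 769 with TSA, against 688 and 744 with DMSO, with the TSA arrays above (0.25 ± 0.49, SE). By 204412_s_at it had 457 and 443 with TSA, against 478 and 484 with DMSO, with the TSA arrays below (-0.09 ± 0.35). Both differences were smaller than their standard errors. DMSO was above control siRNA by both, with 1.14 ± 0.49 (unadjusted p = 0.0400) and 0.79 ± 0.35 (unadjusted p = 0.0461), and neither passed the limma test after adjustment. Across the 9 arrays the 2 probe sets correlated with r = 0.64 and rho = 0.13, and with r = 0.26 without the 2 arrays farthest from the median, so their relation rests on those arrays.

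NEFL, the light chain on which the other chains depend for assembly, was read by 3 probe sets. By 221805_at it had 859 and 1997 under siRNA no.2, 1128 under the unnumbered siRNA and 720.5 and 1035 under control siRNA. By 221916_at it had 565 and 964 under no.2, 938 under the unnumbered siRNA and 329 and 813 under control. In both, replicate 2 lay above replicate 1 in each group and the groups of 2 overlapped. The fold changes for no.2 were 0.59 ± 0.56 and 0.49 ± 0.50 on the log2 scale (SE), and those for the unnumbered siRNA 0.38 ± 0.68 and 0.82 ± 0.61. Without control replicate 1 the values of the unnumbered siRNA were 0.12 and 0.20.

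The TSA values of NEFL also overlapped those of DMSO by these probe sets. They were 936 and 1738 with TSA, against 413 and 1489 with DMSO, by 221805_at (0.68 ± 0.56, SE), and 732 and 939.6 with TSA, against 375 and 1070.5 with DMSO, by 221916_at (0.37 ± 0.50). The third probe set, 221801_x_at, whose suffix marks probes that may cross-hybridise, had 151 and 155 with TSA, against 83.2 and 94.0 with DMSO. There the TSA arrays were both above the DMSO arrays, with a fold change of 0.65 ± 0.40 (SE, limma, unadjusted p = 0.130). Under siRNA no.2 this probe set had 75.7 and 188, against 80.1 and 132 under control siRNA, and it had 153 under the unnumbered siRNA. Over the 9 arrays 221805_at and 221916_at correlated with r = 0.86 and rho = 0.93, and 221801_x_at correlated with them with r of 0.68 and 0.70.

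INA, a partner of the neurofilament chains in central axons, had 424 and 376 under siRNA no.2, 768 under the unnumbered siRNA and 288 and 339 under control siRNA. Both no.2 arrays were above both controls, and the unnumbered siRNA was brighter still. The log2 fold changes were 0.33 ± 0.34 for no.2 (SE) and 1.23 ± 0.41 for the unnumbered siRNA (limma, unadjusted p = 0.0127, adjusted p = 0.952). INA had 272 and 497 with TSA, against 256 and 429 with DMSO, which overlapped (0.14 ± 0.34).

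PRPH, the filament of peripheral and sensory neurons, had signals closer to the filter. They were 116 and 211 under siRNA no.2, 154 under the unnumbered siRNA and 57.6 and 135 under control siRNA, where no.2 and control overlapped (0.66 ± 0.47, SE, limma, unadjusted p = 0.184). The unnumbered siRNA gave 0.64 ± 0.57. Without control replicate 1 the values were 0.19 for no.2 and 0.16 for the unnumbered siRNA. With TSA it had 76.8 and 202, against 85.7 and 109 with DMSO, which overlapped as well (0.32 ± 0.47).

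GFAP, the astrocyte filament, did not pass the filter. By 203539_s_at its signals were 5.07 to 11.7, and all 9 arrays lay under the value of the filter, so no level can be read from it. By 203540_at it had 34.6 and 67.3 under siRNA no.2, 67.3 under the unnumbered siRNA and 19.5 and 9.79 under control siRNA. With TSA it had 60.3 and 73.3, against 23.8 and 17.7 with DMSO. Of these 9 values 5 were under 53.3, among them all 4 controls.

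Each of the 5 treated arrays was above each of the 4 control arrays by 203540_at, with a lowest treated value of 34.6 and a highest control value of 23.8. This ordering was looked for after the values had been seen. It held for 86 of the 5400 probe sets under the filter (1.59%) and for 2.14% of the 13665 tested ones, and for none of the other 11 filament probe sets. With no filter the log2 fold changes of GFAP 203540_at were 0.91 ± 0.32 for no.2 (SE, unadjusted p = 0.0191, adjusted p = 0.913), 1.23 ± 0.39 for the unnumbered siRNA (unadjusted p = 0.0122, adjusted p = 0.912) and 1.00 ± 0.32 for TSA (unadjusted p = 0.0122, adjusted p = 1.00). Of the 19065 probe sets then tested, 5.34%, 5.44% and 3.26% had an unadjusted limma p below 0.05 in these comparisons. For so dim a probe set the log2(signal + 25.1) scale gives a smaller fold change than the signals alone. All 4 control signals lay under 25.1 and there were no detection calls, so the size of the change cannot be read on either scale. The second GFAP probe set did not follow it (r = 0.32 over the 9 arrays), with log2 fold changes of 0.04, 0.05 and 0.10 in the same order. Of the 7 other astrocyte markers on the array 4 passed the filter, ALDH1L1, SLC1A3, GJA1 and GLUL. Their fold changes were above 0 for 1 of 4 with no.2 (median -0.19), 3 of 4 with the unnumbered siRNA (median 0.17) and 3 of 4 with TSA (median 0.22), and none passed. The 7, most of whose total was the gap junction gene GJA1 and the glutamine synthetase gene GLUL, had a summed signal of 5334 to 7590 under no.2, 7977 under the unnumbered siRNA and 6094 to 6130 under control siRNA, and of 6416 to 7315 with TSA, against 5596 to 6497 with DMSO. Their part in the GFAP values was not tested. In bulk RNA of 1 cell line, a change in the share of cells with GFAP RNA and one in RNA per cell cannot be told apart.

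**Figure D2:**
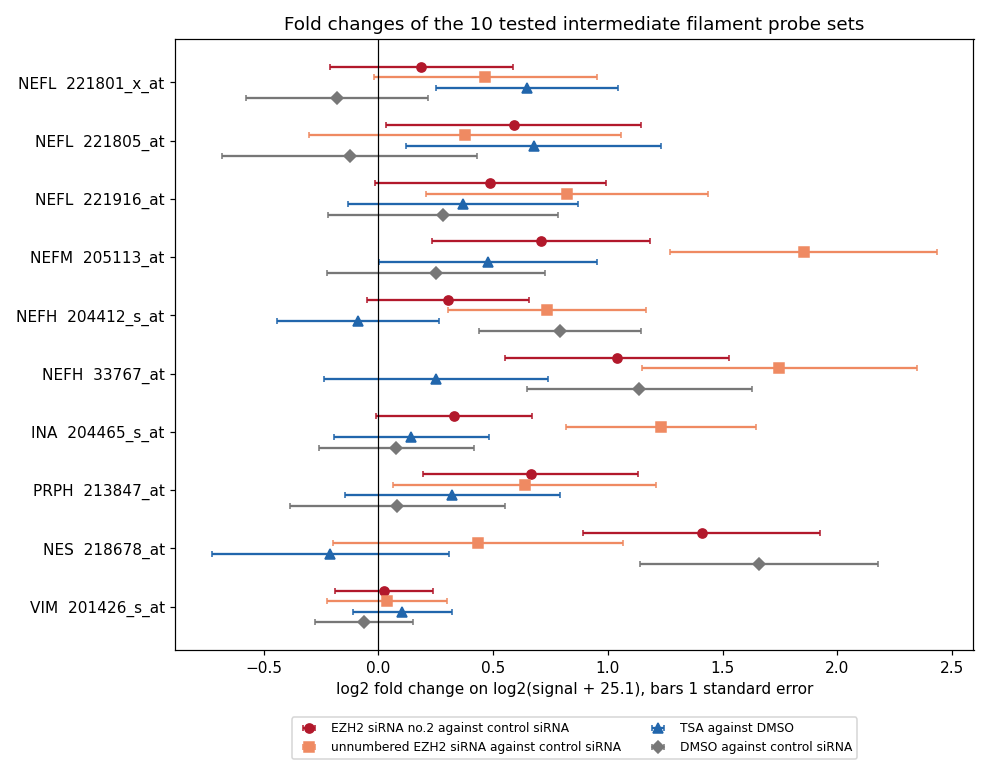
Log2 fold change on the log2(signal + 25.1) scale, with bars of 1 standard error, of the 10 tested probe sets. Shown are siRNA no.2 and the unnumbered EZH2 siRNA against control siRNA, TSA against DMSO, and the control group DMSO against the control group control siRNA. The siRNA values are all above 0, from 0.02 for VIM to 1.41 for NES with no.2, NEFM has the highest value of the unnumbered siRNA at 1.85, and DMSO lies above control siRNA for NES and NEFH.

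Under siRNA no.2, 0 of the 10 tested probe sets passed the adjusted limma test, where the share over all tested probe sets was 0% and the lowest adjusted p was 0.920. By unadjusted p below 0.05 there was 1, NES, where the share over all was 5.27%. All 10 fold changes were above 0, as were 58.2% of all tested probe sets. Their median was 0.54, against 0.07 over all. In 2, NES and INA, both no.2 arrays lay above both controls, while 22.4% of all tested probe sets did so. The 10 values are not independent, since several share a gene and all share the control arrays. Without no.2 replicate 2, 6 of the 10 stayed above 0 and the median was 0.20.

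For the unnumbered siRNA 0 of 10 passed (0% over all), and 3 had an unadjusted p below 0.05, namely NEFM, NEFH by 33767_at and INA (5.01% over all). All 10 were above 0, against 56.3% over all, with a median of 0.69 against 0.07. The single array lay above both control arrays for 9 of the 10, against 39.2% of all tested probe sets. These values share their control arrays with those of siRNA no.2, and they rest on 1 array whose spread was taken from the other groups.

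With TSA 0 of 10 passed (0% over all) and 0 had an unadjusted p below 0.05 (2.41% over all). With the replicate number as a block 1 did, NEFL 221805_at (limma, unadjusted p = 0.0424, adjusted p = 0.979), beside 600 of the 13665 tested probe sets. Fold changes were above 0 for 8 of 10, against 55.3% over all, and their median was 0.29 against 0.04. The TSA arrays were both above the DMSO arrays for NEFL 221801_x_at and NEFH 33767_at (16.1% of all) and both below for NEFH 204412_s_at (12.1% of all). Without DMSO replicate 1, 4 of the 10 were above 0 and the median was -0.07. DMSO against control siRNA gave 0 of 10 past the test (0% over all), 3 with an unadjusted p below 0.05 (4.26% over all), and 3 with both DMSO arrays above both controls (19.4% over all), NES and both NEFH probe sets in each case. Between the effects of siRNA no.2 and TSA, 0 of 10 passed (0% over all) and 1, NES, had an unadjusted p below 0.05 (1.71% over all).

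The members that passed a test did so between the arrays numbered 2 and 1, a comparison chosen after the values had been seen. In a limma fit with the replicate number beside the 4 treatments that have 2 arrays, NEFL rose on the arrays numbered 2, by 1.09 ± 0.21 on the log2 scale by 221805_at (SE, adjusted p = 0.0347) and by 0.95 ± 0.20 by 221916_at (adjusted p = 0.0476). The unnumbered siRNA, with 1 array, was left out of that fit. Over all tested probe sets 1.46% passed. With 1 of the 8 arrays left out, the values were 0.86 to 1.29 and 0.78 to 1.15, and the call was not kept in every such fit. Leaving out either array of a group takes that group out of this difference, so both gave the same value. Each of these 2 NEFL probe sets was above in 4 of 4 groups, so the direction could not have changed. NEFL by 221801_x_at (0.46, adjusted p = 0.325) and PRPH (0.78, adjusted p = 0.104) were also above in 4 of 4 groups without passing, and 15.3% of all tested probe sets were above in 4 of 4. Values for the other members were 0.54 for NES, 0.39 for INA, 0.01 for NEFH 204412_s_at, -0.04 for NEFM, -0.17 for VIM and -0.70 for NEFH 33767_at. What the numbers stand for is not given by the titles. The spiked hybridisation controls moved along, with a mean log2 signal of 10.43 to 10.53 on the arrays numbered 2 and 9.80 to 10.16 on the others. The ratio of the 3′ to the 5′ ACTB probe set was 1.24 to 1.44 on the arrays numbered 2 and 1.03 to 1.25 on those numbered 1. These ranges overlap, but within each group the ratio was higher on the array numbered 2. It went from 1.04 to 1.24 under siRNA no.2, 1.03 to 1.28 under control siRNA, 1.25 to 1.44 with TSA and 1.14 to 1.29 with DMSO. That of GAPDH was 0.927 to 1.02 on the arrays numbered 2 and 0.846 to 1.03 on those numbered 1. It was higher on the array numbered 2 for control siRNA and TSA, and lower for siRNA no.2 and DMSO. Their part in the NEFL difference was not tested.

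**Figure D3:**
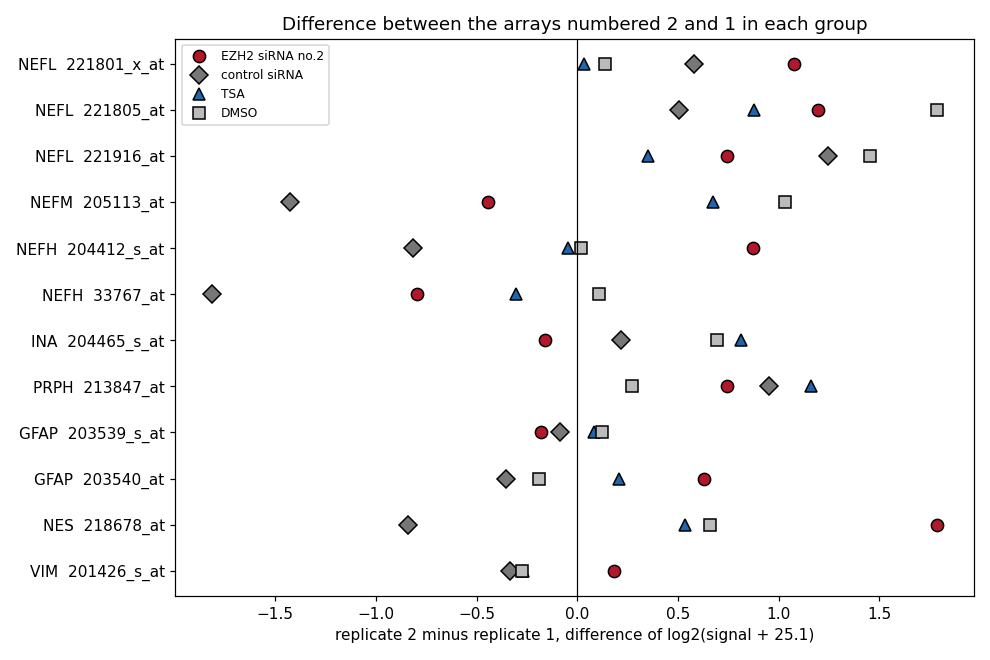
Difference of log2(signal + 25.1) between the arrays numbered 2 and 1 in each of the 4 groups with 2 arrays. Each of the 12 filament probe sets has 1 row, among them the 2 of GFAP, which were not tested. The 3 NEFL probe sets and PRPH lie above 0 in all 4 groups, and NEFH 33767_at lies below 0 in 3 of 4.

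Patterns over the 9 arrays were compared as a description. NEFM correlated with INA with r = 0.78 and with NEFH 33767_at with r = 0.76, or 0.19 without the 2 arrays farthest from the median. All members share the arrays, their scaling and the treatments. The tested probe set of another gene most like NEFL 221805_at was that of MIR9-1HG, the host gene of a microRNA 9 precursor (r = 0.982). NES was most like BNIP1, a protein of membrane fusion at the endoplasmic reticulum (r = 0.980), PRPH most like CLDN10, a claudin of tight junctions (r = 0.975), and INA most like AQP8, a water channel (r = 0.972). NEFH 33767_at was most like POMGNT1, a glycosyltransferase of dystroglycan (r = 0.966), NEFM most like UBE3A, a ubiquitin ligase (r = 0.963), and VIM most like the growth factor gene FGF1 (r = 0.895). The tenth-highest r was still 0.837 to 0.942, so with 9 arrays many probe sets come close.

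Genes that work with these filaments were read in the same fit. Of 41 tested genes in 6 lists (other cytoplasmic filaments, lamins, linkers, kinases and phosphatases of filament proteins, the neural repressor complex and neuronal microtubule genes), 0 passed the adjusted limma test with siRNA no.2, the unnumbered siRNA or TSA. With no.2 the fold changes were above 0 for 30 of 41, with a median of 0.17, beside 58.2% and 0.07 over all tested probe sets. With the unnumbered siRNA they were above 0 for 28 of 41, with a median of 0.15 (56.3% and 0.07 over all), and with TSA for 26 of 41, with a median of 0.06 (55.3% and 0.04 over all). Median fold changes with no.2 by list were 0.07 for the other cytoplasmic filaments, 0.33 for the lamins, 0.19 for the linkers, 0.10 for the kinases and phosphatases, 0.01 for the repressor complex and 0.31 for the microtubule genes. For TSA the list medians were -0.09, 0.08, 0.12, -0.01, 0.28 and -0.28 in the same order.

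Among the kinases, ROCK1, which phosphorylates vimentin, had 1493 and 1808 under siRNA no.2, against 989 and 1027 under control siRNA (log2 fold change 0.69 ± 0.24, SE, limma, unadjusted p = 0.0137, adjusted p = 0.920). CDK5, a kinase of the neurofilament tails, had 296 and 368 under no.2, against 478 and 558 under control (-0.61 ± 0.26, unadjusted p = 0.0387, adjusted p = 0.920). DCTN1, a dynactin subunit of the motor that carries filament cargo, had 1310.0 and 1106 under no.2, against 906 and 626 under control (0.66 ± 0.27, unadjusted p = 0.0348, adjusted p = 0.920). In these 3 the groups did not overlap, as in 9 of the 41 genes with no.2 above control and 4 with no.2 below it, beside 22.4% and 12.8% of all tested probe sets, and none passed after adjustment. REST, the repressor of neuronal genes, had 135 and 250.2 under no.2, against 94.9 and 161 under control (0.49 ± 0.36, limma, unadjusted p = 0.201). RCOR1 of the same list went the other way, with 1791 and 1233 against 1555 and 3104 (-0.56 ± 0.33, unadjusted p = 0.120). Groups overlapped for both, and 3 of the 6 genes of that list were above 0 with no.2. With TSA, REST had 214 and 189.8, against 118 and 161 with DMSO (0.48 ± 0.36), and 6 of 6 were above 0. UCHL1, a ubiquitin hydrolase abundant in neurons, had 5225 and 8748 with TSA, against 12391 and 11358 with DMSO (-0.81 ± 0.38, unadjusted p = 0.0591).

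**Figure D4:**
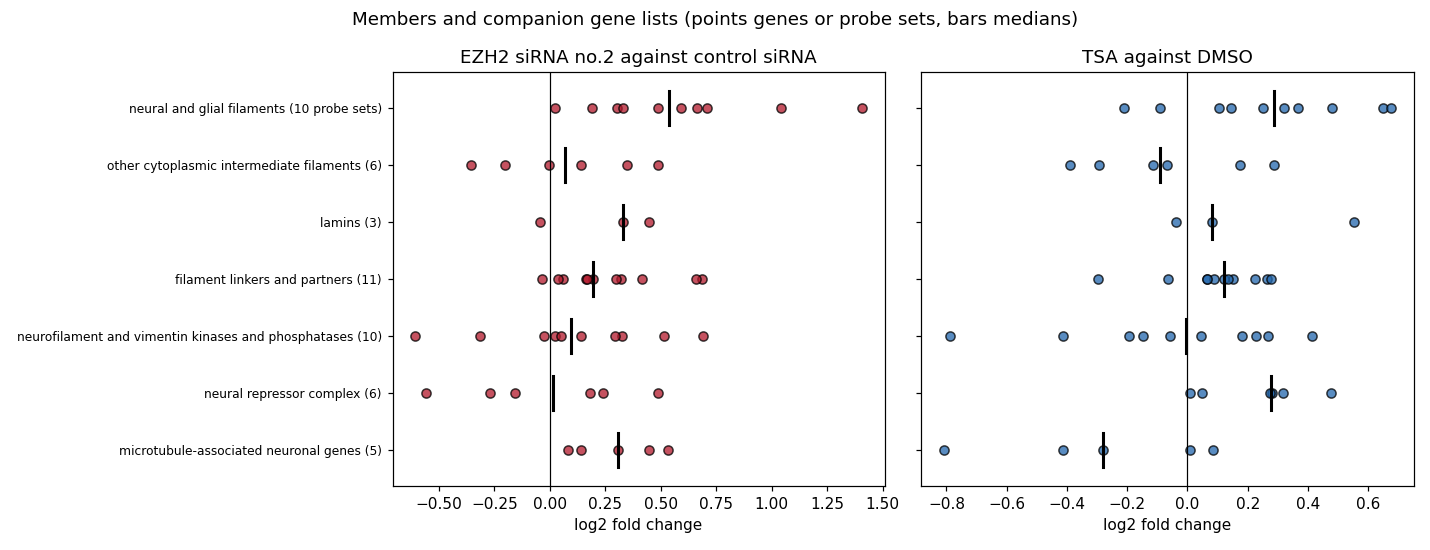
Log2 fold change (x axis) of the 10 filament probe sets and of the 41 genes in 6 companion lists, with siRNA no.2 against control siRNA on the left and TSA against DMSO on the right, points for probe sets or genes and bars for medians. The filament median is 0.54 on the left and 0.29 on the right, and the companion medians lie between 0.01 and 0.33 on the left and between -0.28 and 0.28 on the right.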

How the data were processed

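Each deposited intensity is a MAS5 signal per probe set, per the submitters' processing notes. Version and scaling are not given in the sources used here, and trimmed means of 500.1 to 500.2 were found. Signals were analysed as log2(signal + 25.1), with the 20th percentile of the table as pseudocount. The 22283 probe sets comprise 68 controls, 19065 with 1 gene, 1043 with several and 2107 with none. Those naming 1 gene with a mean of at least 53.3 were tested, 13665 probe sets of 9100 genes.

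Group means over all 9 arrays were fitted with limma 3.58.1 in R 4.3.3, with a mean-variance trend in eBayes, 4 residual and, at the median, 7.01 prior degrees of freedom. Tests were two-sided, adjusted by Benjamini-Hochberg over all tested probe sets, with a threshold of 0.05. Permuting 2 against 2 arrays cannot reach that threshold and was not done. The number of arrays limits the precision.

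The fit was tested on simulated data of the 13665 probe sets. For siRNA no.2 against control it recovered 9.8% of simulated 2-fold changes, 67.8% at 4-fold and 85.0% at 8-fold, and for TSA against DMSO 6.4%, 68.0% and 86.8%. On average 6.4 and 6 unchanged probe sets were called in these 2 comparisons. The simulated noise was independent between arrays, with no difference by replicate number, so these shares need not hold for the real arrays.

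The members, the companion and marker lists and the tests were chosen with earlier results of these data known. All members were named. From each companion list the 2 genes with the smallest unadjusted p were taken, and a part of them is given in the text. The probe set with the highest correlation was named for each member. Alternatives were 2 other pseudocounts, 5.42 and 87.2, no filter, a filter at 148, 1 probe set a gene, quantile normalization, eBayes with no trend, scaling to the same median, a fit of the compared groups alone, the 3 EZH2 siRNA arrays as one group, the replicate number as a block, and leaving out each array. The number tested was 13665 in the main fit, 19065 with no filter and 9100 with 1 probe set a gene, so raw counts differ for that reason too. With no filter the shares with an unadjusted limma p below 0.05 were 5.34% for no.2, 5.44% for the unnumbered siRNA and 3.26% for TSA. In the main fit they were 5.27%, 5.01% and 2.41%. Names came from GEO's platform annotation, in which 12 gene identifiers were not matched to RefSeq.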

Additional observations from a re-analysis of the deposited data

How the results depend on the processing

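In the comparisons of treatments no filament probe set passed the adjusted test under any of the alternatives run, and of 545 values recomputed 22 changed sign, 20 of them on leaving out 1 array. The others were VIM with every array scaled to the same median, at -0.12 for siRNA no.2 and -0.075 for the unnumbered siRNA. That scaling gave a no.2 median of -0.06 over all tested probe sets, against 0.07, and a filament median of 0.40, with 9 of 10 above 0. It gave 230 probe sets higher and 457 lower by unadjusted p for no.2, against 486 and 234, 226 and 422 for the unnumbered siRNA, against 384 and 300, 94 and 209 for TSA, against 170 and 160, and 241 and 290 for DMSO, against 400 and 182. Quantile normalization gave 352 and 304 for no.2. The NEFL difference between arrays numbered 2 and 1 was 1.11 and 0.95 under quantile normalization (adjusted p = 0.0309 and 0.0395), 0.97 and 0.83 under the same-median scaling (adjusted p = 0.0466 and 0.0519), and had adjusted p of 0.0554 and 0.0763 without the trend, for 221805_at and 221916_at in turn; these settings were chosen after seeing the data. Only 1 adjusted call appeared in any comparison of treatments, for the unnumbered siRNA when only the compared groups were fitted, and it was not a filament gene.

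Leaving out 1 array moved the fold changes for no.2 over -0.35 to 0.73 for NEFL 221801_x_at, -0.0074 to 1.19 for 221805_at, -0.13 to 1.11 for 221916_at, -0.0047 to 1.42 for NEFM, -0.14 to 0.74 for NEFH 204412_s_at, -0.14 to 0.19 for VIM, 0.51 to 2.30 for NES and 0.13 to 1.95 for NEFH 33767_at. PRPH ran over 0.19 to 1.14. For the unnumbered siRNA the ranges were 0.12 to 0.63 for NEFL 221805_at, 0.20 to 1.44 for 221916_at, 0.16 to 1.11 for PRPH, 0.013 to 0.86 for NES and -0.13 to 0.20 for VIM. For TSA the ranges were -0.22 to 1.57 for NEFL 221805_at, -0.36 to 1.09 for 221916_at, -0.038 to 0.99 for NEFM, -0.26 to 0.55 for INA, -0.26 to 0.90 for PRPH, -0.54 to 0.12 for NES and -0.033 to 0.24 for VIM. Over all alternatives the counts past an unadjusted p of 0.05 ran over 489 (without no.2 replicate 2) to 1182 (replicate block) for no.2, 467 (1 probe set a gene) to 1038 (no filter) for the unnumbered siRNA, 145 (without DMSO replicate 1) to 1032 (without TSA replicate 2) for TSA, 313 (without DMSO replicate 1) to 965 (replicate block) for DMSO and 150 (filter at the 50th percentile) to 524 (without TSA replicate 2) for the difference of effects, against 720, 684, 330, 582 and 234. Filters and 1 probe set a gene also change the number tested. Other causes were not tested.

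What the replicate numbers mark is not stated and each group has only 2. Deviations of same-numbered arrays correlated with r = 0.236 to 0.409 in 5 of the 6 pairs of groups (0.303 for no.2 and control, 0.359 for TSA and DMSO) and 0.0981 for control and TSA, and 199 probe sets differed by number. With the replicate number as a block there were 0 adjusted calls in each comparison (lowest adjusted p = 0.511 for no.2 and 0.979 for TSA). Of the filament probe sets NES (unadjusted p = 0.00980, adjusted p = 0.511) and NEFH 33767_at (0.0182 and 0.520) had the smallest p for no.2, and for TSA NEFL 221805_at had an unadjusted p of 0.0424, with 600 probe sets below 0.05 against 330. With the 3 EZH2 siRNA arrays as one group NES gave 1.08, NEFM 1.09 and NEFH 33767_at 1.28, with 0 adjusted calls. Arrays give no depth, and the low signal limits what GFAP and PRPH show.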
